A study of Mus musculus with 64 samples.

Results

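Collagens are the main structural proteins of the sheath that surrounds muscle fibers, fascicles and tendon, and their transcripts were followed here through a mouse experiment on HIF1α, exercise and time of day. Genes were taken by symbol, as every protein-coding gene named Col, a number, a and a number. Of 55401 gene identifiers counted, 44 carried such a symbol, and 40 of these had at least 10 counts in at least 7 of 63 libraries. The 4 genes that fell short were Col9a2, Col9a3, Col6a4 and Col10a1, and Col9a2 came closest with 10 counts in 4 libraries and a highest count of 16. Just inside the limit stood Col17a1 with 8 such libraries, Col25a1 with 12 and Col2a1 with 20.

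RNA came from the gastrocnemius, the large calf muscle, of 64 mice on a C57BL/6JBomTac background aged 12 to 18 wk. HIF1α KO mice carried Cre recombinase under the human α-skeletal actin promoter (HSA-Cre) together with Hif1a fl/fl, and controls were fl/fl littermates without Cre, so both genotypes had floxed Hif1a alleles with exon 2 between loxP sites. Mice ran on a treadmill for 60 min at 16 m/min and a 5% incline, or had a sham session (sedentary), at ZT3 (3 h after lights on, the rest phase) or at ZT15 (early in the dark, active phase), and muscle was taken 3 h after the session. Genotype, exercise and time gave 8 groups of 8 mice, 4 female and 4 male, each mouse with its own number in the labels, so replicates are separate animals. One exercised HIF1α KO male at ZT3, mouse 44, had only 382 counts in all and was left out, which leaves 7 mice in that group.

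HSA-Cre is active in muscle fibers, so fibroblasts, vessel cells, nerve sheath cells and tendon cells of HIF1α KO muscle keep Hif1a. Hif1a itself was counted over the whole gene, so the deleted exon is not singled out. Its level was 36.4 ± 6.31 CPM (TMM-scaled counts per 1000000 counted reads, SD, n = 32) in fl/fl and 36.4 ± 4.80 CPM (n = 31) in HIF1α KO mice, with ranges of 25.9 to 57.3 and 28.8 to 49.7 CPM. The gene level therefore does not tell the genotypes apart, and the labels were taken as given. The 8 muscle fiber markers summed to between 89740 and 161018 CPM in each library, so the muscle label holds. In whole tissue, fewer collagen-making cells and less collagen RNA per cell cannot be told apart.

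A collagen molecule is a triple helix of 3 α chains, made of the same or of different gene products. Fibrillar collagens, led by types I and III, form the banded fibers of the interstitium and tendon. Type IV chains build the sheet-like network of the basement membrane around each muscle fiber, and type VI makes beaded filaments that tie this sheet to the interstitium. FACIT collagens sit on the surface of fibrils, and mutations in type VI genes or in COL4A1 are known to cause muscle disease. In muscle most collagen is made by fibroblasts and related mesenchymal cells rather than by the fibers, while type XXII collagen is known for its place at the junction of muscle and tendon.

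The 63 libraries held between 2359780 and 40377963 counts, with a median of 16236352, and 3 held fewer than 5000000. Mice 5, 8 and 10 stood apart, and they are fl/fl males of 3 different groups: sedentary at ZT3, sedentary at ZT15 and exercised at ZT15. Their Col3a1 levels were 1628, 882 and 1328 CPM, against at most 679 CPM in the other 60 mice. In 58 genes, 4 of them collagens (Col3a1, Col5a1, Col6a2 and Col6a3), all 3 mice lay above every other mouse. Summed over the collagens they had 4725, 3607 and 4513 CPM, and a macrophage marker list summed to 160 to 233 CPM in them and to 77.4 to 156 CPM in the others. Since the mice were picked by a collagen level after the data were seen and are all fl/fl males, leaving them out lowers the fl/fl side and the male side by construction. Collagen calls are therefore given both with and without them. Partner genes are given both ways for genotype only, and markers with these mice only. Some partner calls for time or sex did not pass without them.

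The collagen levels also moved with mouse number, for which the labels give no meaning. Cutting the numbers 1 to 64 into 4 runs of 16, the run explained 0.60% to 46.5% of the variance of a collagen, with a median of 14.7% beside 12.8% over all genes tested. The largest shares were those of Col4a2 (46.5%), Col18a1 (41.2%) and Col6a1 (39.9%). Mean Col4a2 was 110, 63.8, 94.5 and 111 CPM in the successive runs. The run was therefore tried as a term in the model and results were also computed within each run.

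Promoters of some collagens that passed the test for genotype (Col16a1 and Col4a5) or time of day (Col28a1, Col27a1 and Col5a3) are printed here, because the study turns on the factor HIF1α and on the clock. They are the 250 bases before the start that RefSeq gives in GRCm38.p6, 5′ to 3′ on the gene's strand, and capitals mark the letters of a searched motif. Col16a1 lies at chr4:130047590-130047839 on the plus strand, in a stretch where Gm12963 also has an exon. Col4a5 lies at chrX:141475169-141475384 on the plus strand and is 216 bases long, since 34 bases nearest the start fall in an exon of the gene itself and were left out. Col28a1 lies at chr6:8192618-8192867 on the minus strand, Col27a1 at chr4:63215162-63215411 on the plus strand, where the RefSeq start lies inside the longer GENCODE gene, and Col5a3 at chr9:20815068-20815317 on the minus strand. The last line is the 71-base gap shared by the start sites of Col4a4 and Col4a3, which are transcribed away from each other, at chr1:82586850-82586920, read on the minus strand.
Col16a1: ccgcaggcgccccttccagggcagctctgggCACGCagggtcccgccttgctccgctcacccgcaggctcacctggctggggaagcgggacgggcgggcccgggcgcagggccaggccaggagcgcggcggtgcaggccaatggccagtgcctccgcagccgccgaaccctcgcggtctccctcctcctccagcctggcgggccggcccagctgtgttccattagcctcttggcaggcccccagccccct
Col4a5: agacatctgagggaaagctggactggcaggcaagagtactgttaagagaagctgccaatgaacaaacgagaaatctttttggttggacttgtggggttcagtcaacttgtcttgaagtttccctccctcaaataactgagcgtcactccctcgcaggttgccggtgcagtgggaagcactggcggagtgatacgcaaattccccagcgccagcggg
Col28a1: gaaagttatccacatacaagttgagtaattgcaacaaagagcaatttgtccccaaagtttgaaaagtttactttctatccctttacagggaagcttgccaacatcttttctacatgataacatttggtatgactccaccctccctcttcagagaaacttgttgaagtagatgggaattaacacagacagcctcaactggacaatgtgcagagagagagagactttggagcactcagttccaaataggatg
Col27a1: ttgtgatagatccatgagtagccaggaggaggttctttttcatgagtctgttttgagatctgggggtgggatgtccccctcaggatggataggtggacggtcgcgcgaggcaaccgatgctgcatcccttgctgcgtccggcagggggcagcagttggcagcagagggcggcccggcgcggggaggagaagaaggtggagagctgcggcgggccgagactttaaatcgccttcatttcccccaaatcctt
Col5a3: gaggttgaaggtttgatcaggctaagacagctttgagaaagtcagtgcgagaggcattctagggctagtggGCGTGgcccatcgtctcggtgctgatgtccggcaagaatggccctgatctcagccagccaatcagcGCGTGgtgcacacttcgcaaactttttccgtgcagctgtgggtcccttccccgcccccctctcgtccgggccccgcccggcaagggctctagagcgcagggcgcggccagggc
Col4a4 to Col4a3: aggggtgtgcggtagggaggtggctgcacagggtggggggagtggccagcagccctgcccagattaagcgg

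The motifs were searched on both strands in the 250 bases of 35 promoters of 32 collagens and of 32851 promoters in all. The core of the hypoxia response element, ACGTG or GCGTG, was in 38.6% of all promoters and in those of 11 collagens, 2 of which are printed: Col16a1 has it in reverse as CACGC, and Col5a3 has GCGTG in both capital runs. The E-box CACGTG, which contains ACGTG, was in 6.02% of all promoters and in no collagen promoter, and neither was the D-box, TTATGTAA or TTACGTAA (0.931% of all). The REV-ERB and ROR element AGGTCA was in 14% of all and in 8 collagens, and the androgen receptor element TGTTCT in 16.1% of all and in Col9a1 and Col20a1. A match describes letters and is not evidence of binding. For Col22a1, Col4a3 and the other collagens outside these 32 no promoter entry was used. None is printed for Col5a2 and Col14a1, which also passed for genotype.

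Per length, as TPM (counts divided by exon length, per 1000000 in each library), 3 fibrillar chains led. Col3a1, the single chain of type III, averaged 158 ± 86.3 TPM (SD, n = 63) with a range of 67.9 to 602. Col1a1 and Col1a2, the 2 chains of type I, averaged 150 ± 90.3 TPM (27.5 to 412) and 148 ± 78.6 TPM (43.6 to 397). Their ranges over mice overlapped, and ratios of these chains within the same mice are given further on.

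The next ranks were held by the ubiquitous basement membrane chains and by type VI. Col4a1 averaged 96.8 ± 28.8 TPM and Col4a2 51.2 ± 15.3 TPM, with Col6a1 between them at 86.7 ± 28.8 TPM. Col6a3 followed at 34.3 ± 10.5 TPM, Col5a2 at 31.8 TPM and Col6a2 at 27.9 ± 8.79 TPM, again with overlapping ranges. These first 6 genes (Col3a1 to Col4a2) took 71.6% of all collagen TPM and the first 3 took 46%.

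By class, 11 fibrillar genes made up 55.4% of collagen TPM, 8 network-forming genes 18.3% and 5 type VI genes 16.5%. The 7 FACIT genes held 6.13%, led by Col12a1 (18.8 TPM), Col14a1 (12.7 TPM) and Col22a1 (12.4 TPM). The multiplexins Col15a1 and Col18a1, whose C-terminal fragments are restin and endostatin, held 2.45%, and the anchoring-fibril collagen Col7a1 0.550%. The 4 transmembrane collagens held 0.361% and 2 ungrouped genes (Col26a1 and Col28a1) 0.261%, and the lowest gene of all was Col25a1 at 0.0990 TPM. Col13a1, Col17a1, Col4a6, Col2a1, Col26a1 and Col25a1 were listed at 0 in at least 1 library.

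**Figure D1:**
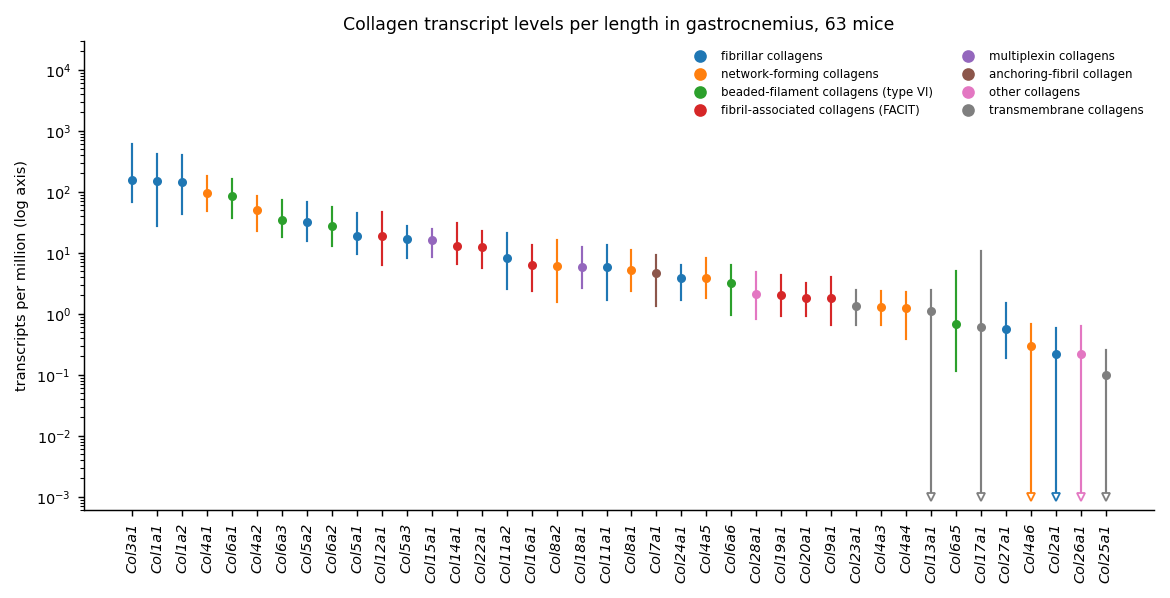
Mean level of each of the 40 collagen genes over 63 mice in TPM on a log axis, coloured by class, with a line from the lowest to the highest mouse. An open triangle at the bottom marks a gene listed at 0 in at least 1 library. The mean falls from 158 TPM for Col3a1 to 0.0990 TPM for Col25a1, and fibrillar genes hold the first 3 places.

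The abundant chains that share a molecule had these ratios. Type I collagen has 2 α1 chains for each α2 chain, and the TPM ratio of Col1a1 to Col1a2 had a median of 0.997 (0.631 to 1.31 over 63 mice). Type IV has the same 2 to 1 make-up in its common form, and the ratio of Col4a1 to Col4a2 had a median of 1.91 (1.28 to 2.35). Col6a1 to Col6a2 had a median of 2.98, Col6a3 to Col6a1 of 0.398 and Col5a1 to Col5a2 of 0.622. The low-level pair Col4a3 and Col4a4 was less steady, with a median of 1.12 and a range of 0.504 to 3.06. Col3a1 to Col1a1, which are in different molecules, ranged more widely, from 0.450 to 3.75 with a median of 1.10. Exon models set the lengths, so a ratio between genes and its range carry any error in them, while its spread relative to its median does not.

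The first question was whether loss of HIF1α in fibers went with other collagen levels. In the average over exercise and time, 5 of 39 tested collagens fell in HIF1α KO muscle and none rose: Col22a1, Col4a5, Col16a1, Col5a2 and Col14a1. Across all 15241 genes tested 8.26% passed the same test, 3.58% as lower and 4.68% as higher. Folds of the 5 lay between 0.764 and 0.830. A gene passed where edgeR's quasi-likelihood test, adjusted over all genes by Benjamini-Hochberg, gave an adjusted p under 0.1, the study's own threshold. Col17a1 was too low for the test.

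Of these, 3 are FACIT collagens. Col22a1 (chr15:71795795-72034227, minus strand) ranged from 18.8 through a median of 34.4 to 49 CPM in fl/fl mice and from 15.5 through 27.7 to 39.8 CPM in HIF1α KO mice. The ranges overlapped over most of their length, with the whole KO set shifted down. The fitted log2 change was −0.31 (SE 0.0749, adjusted p = 0.00645, edgeR). By group, its median was 30.3 (fl/fl, ZT3, sedentary), 32.6 (ZT3, exercised), 39.4 (ZT15, sedentary) and 34.4 CPM (ZT15, exercised), against 28.8, 23.8, 30.5 and 29.6 CPM in the same HIF1α KO groups.

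Col16a1 (chr4:130047840-130099283), a FACIT found near fibrillin and in basement membrane zones, had a lowest, median and highest level of 4.12, 12.9 and 25.2 CPM in fl/fl and of 4.82, 10.4 and 20.4 CPM in HIF1α KO mice. Its fitted log2 change was −0.39 (SE 0.126, adjusted p = 0.0628, edgeR). Col14a1 (chr15:55307750-55520803), which binds fibrils through decorin, had 13.1, 23.8 and 61.1 CPM in fl/fl and 13.2, 20.2 and 41.2 CPM in HIF1α KO mice (log2 change −0.34, SE 0.116, adjusted p = 0.0789, edgeR). In both genes the genotypes shared their lower ends, and the highest fl/fl value was that of mouse 10.

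Col5a2 (chr1:45374321-45503282, minus strand) encodes a chain of type V, which nucleates type I fibrils. It had 56, 87.3 and 177 CPM in fl/fl and 44.8, 72.6 and 116 CPM in HIF1α KO mice (log2 change −0.28, SE 0.0933, adjusted p = 0.0731, edgeR). Col4a5 (chrX:141475385-141689234), a basement membrane chain that assembles with α3 and α4 or with α6, had 4.19, 7.33 and 15.3 CPM in fl/fl and 4.32, 6.05 and 11 CPM in HIF1α KO mice. Its fitted log2 change was −0.27 (SE 0.0831, adjusted p = 0.0448, edgeR), and again the ranges overlapped.

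**Figure D2:**
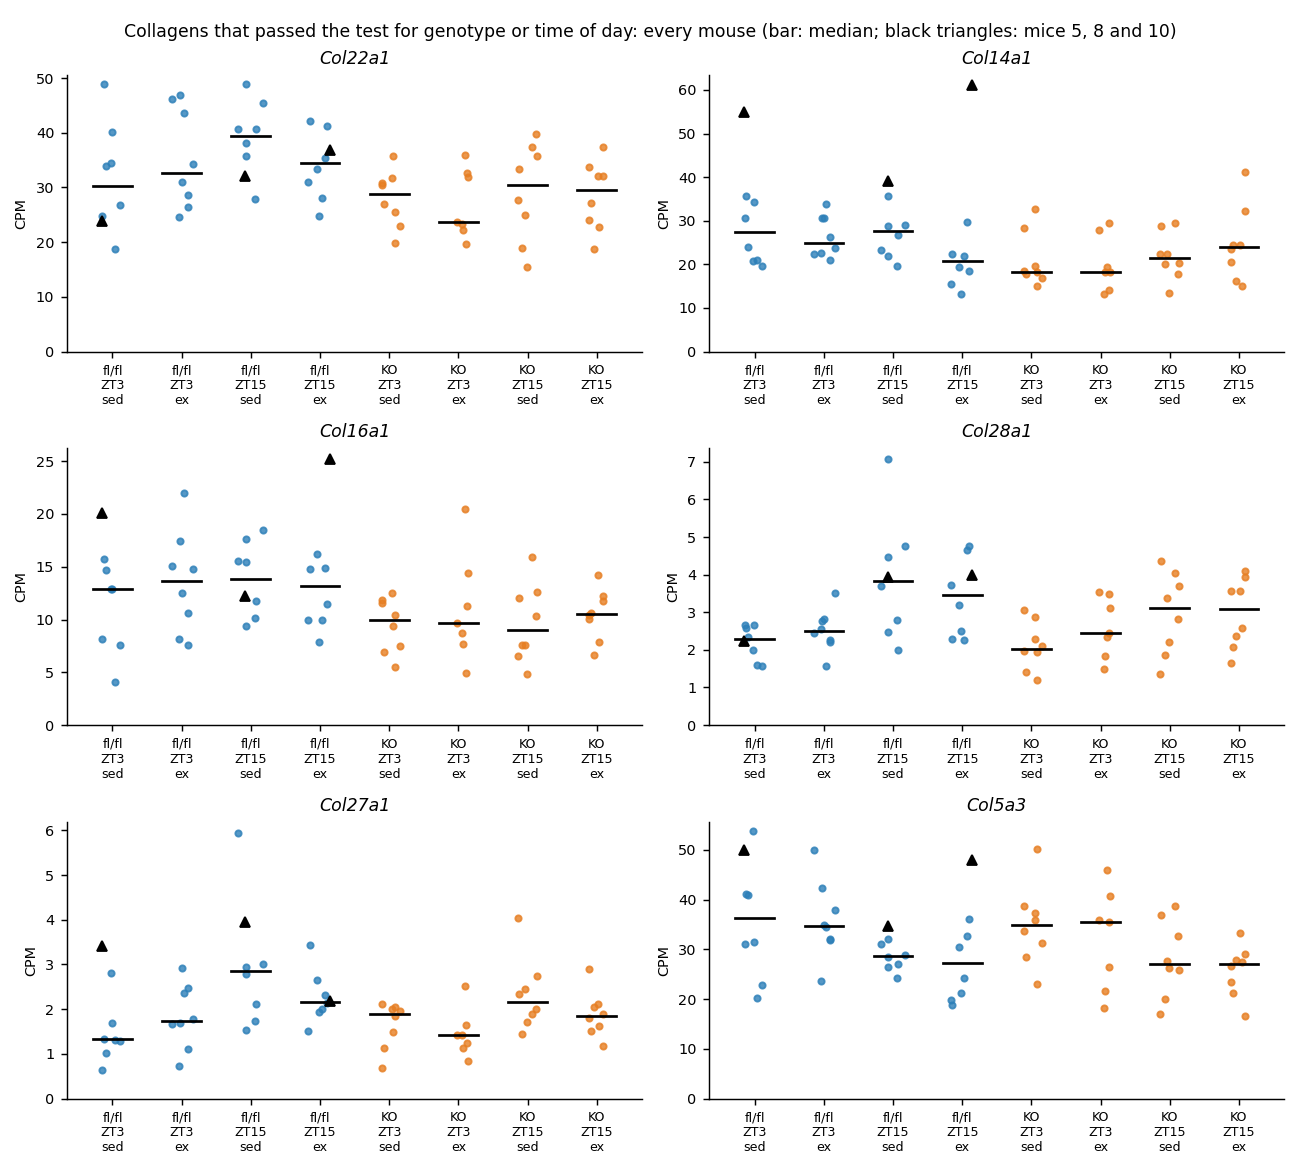
CPM of 6 collagens in every mouse, by group (fl/fl blue, HIF1α KO orange, bar at the group median, black triangles for mice 5, 8 and 10). Col22a1, Col14a1 and Col16a1 are lower on average in HIF1α KO mice with wide overlap, and the triangles lie at or near the top in Col14a1 and in 2 of the 3 groups in Col16a1, but not in Col22a1. Col28a1 and Col27a1 are higher and Col5a3 lower at ZT15.

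The sign was shared well beyond the called genes. Of 39 collagens 37 had a log2 fold change below 0, with a median of −0.19 beside −0.0028 over all genes tested, of which 49.2% were above 0. All 11 fibrillar (median −0.25), all 7 FACIT (−0.29) and all 5 type VI genes (−0.26) were negative, as were 7 of 8 network-forming genes (−0.24). The exceptions were Col7a1 at 0.09 and Col4a6 at 0.02. Collagen levels move together from mouse to mouse, so the count of signs is not a count of independent results.

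With DESeq2, the tool of the study, 8 collagens passed, with Col3a1 (−0.41, adjusted p = 0.0834), Col4a2 (−0.28, adjusted p = 0.0998) and Col8a1 (−0.28, adjusted p = 0.0782) added. In edgeR the most abundant collagens had values on the same side without passing. Col3a1 was at −0.40 on the log2 scale (SE 0.150, adjusted p = 0.111, edgeR), with 209, 411 and 1628 CPM as lowest, median and highest in fl/fl and 198, 372 and 679 CPM in HIF1α KO mice. Col1a1 stood at −0.38 (SE 0.225, adjusted p = 0.338) with medians of 315 and 198 CPM, and Col1a2 at −0.35 (SE 0.189, adjusted p = 0.291) with medians of 568.4 and 414 CPM. In the basement membrane and type VI, Col4a2 was at −0.28, Col4a1 at −0.22, Col6a1 at −0.28, Col6a3 at −0.26 and Col6a2 at −0.15, with adjusted p values of 0.136 or more, and Col5a1 was at −0.15, Col18a1 at −0.14 and Col15a1 at −0.07. Summed over all 40 collagens the level was 2486 ± 884 CPM in fl/fl (1057 to 4725) and 2011 ± 676 CPM in HIF1α KO mice (1114 to 4080).

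The 5 calls depended unequally on mice 5, 8 and 10. Without them Col22a1 alone still passed (log2 change −0.31, adjusted p = 0.0107, edgeR). Col4a5 then stood at −0.21 (adjusted p = 0.151), Col16a1 at −0.28 (0.195), Col5a2 at −0.15 (0.308) and Col14a1 at −0.16 (0.333). The summed fl/fl level fell to 2301 ± 678 CPM, and 35 of 39 collagens were below 0 with a median of −0.14. With the run of mouse numbers as a term, Col22a1 (adjusted p = 0.00645) and Col4a5 (0.0684) passed and Col16a1 (0.133), Col5a2 (0.164) and Col14a1 (0.161) did not.

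Differences within the 4 runs of mouse numbers are plain differences of mean log2 CPM, not adjusted for sex, exercise or time. Sexes and groups are spread unevenly over the runs, so these values are not the fitted ones. For genotype, Col22a1 was at 0.01, −0.30, −0.59 and −0.17, so its unadjusted difference was close to 0 in the first run. Col4a5 was negative in each run, at −0.33, −0.16, −0.25 and −0.19. Col14a1 was −0.30, −0.22, −0.34 and −0.08, and Col5a2 was −0.53, −0.02, −0.31 and −0.04. Col16a1 (−0.41, −0.05, −0.69 and −0.06) and Col5a2 were thus far from 0 in the first and the third run and close to it in the others. The fl/fl males that stood apart by their high Col3a1 level all lie in the first run. Genotype differences in the first run are therefore not independent of those mice.

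No collagen passed within a single combination of exercise and time. Background shares were 0.4% (sedentary, ZT3), 0.0459% (sedentary, ZT15), 1.43% (exercised, ZT3) and 0.4% (exercised, ZT15). In the edgeR test 2, 3, 6 and 2 of 39 collagens had an unadjusted p under 0.05. So did 1038, 1610, 2648 and 1129 of all 15241 genes, and the collagen share was the smaller one in each combination. DESeq2 called none either. Col22a1 was −0.18, −0.41, −0.39 and −0.26 in the same order. No collagen passed in the test of genotype by exercise or of genotype by time, for which the background was 0%, and none had an unadjusted p under 0.05 there with edgeR (306 and 648 of all genes did). DESeq2 called none there either. The 4 values do not therefore show that the difference of Col22a1 varied with exercise or time.

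Few genes that make, hold or bind collagen passed, beside 3.58% of all genes as lower and 4.68% as higher. Most values were below 0. Below 0 were 17 of 19 modification, 11 of 12 processing, 11 of 13 degradation, 10 of 11 basement membrane and 10 of 12 TGF-β pathway genes, while 49.2% of all genes tested were above 0. Among modification and folding genes 1 of 19 fell, P4ha1, a prolyl hydroxylase subunit (log2 change −0.13, adjusted p = 0.0909, edgeR). Among processing and crosslinking genes 1 of 12 fell, the lysyl oxidase relative Loxl3 (−0.24, adjusted p = 0.0921). Among collagen receptors 2 of 9 fell, Itgb1, the integrin β1 chain (−0.13, adjusted p = 0.00389), and the receptor kinase Ddr2 (−0.18, adjusted p = 0.0312), and all 9 were below 0.

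Basement membrane partners counted 2 of 11 lower, the laminin chain Lama2 (−0.16, adjusted p = 0.00727, edgeR) and the linker Nid1 (−0.21, adjusted p = 0.0811). Of 12 TGF-β pathway genes only Tgfb3 fell (−0.24, adjusted p = 0.00103). None of 13 degradation genes or of 16 fibril-binding matrix genes passed, although all 16 of the last were below 0, with a median of −0.24. Lama2 (0.0288), Itgb1 (0.0170) and Tgfb3 (0.00185) passed also without mice 5, 8 and 10, while Nid1 (0.258), Ddr2 (0.144), P4ha1 (0.139) and Loxl3 (0.276) did not.

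Markers of other cells moved with genotype too, beside 3.58% of all genes as lower and 4.68% as higher. Of 7 Schwann cell markers 4 were lower in HIF1α KO mice and all 7 were below 0 (median −0.42), with a summed level of 64.4 to 277 CPM in fl/fl (median 118) and of 54.6 to 245 CPM in HIF1α KO mice (median 95.7). Of 9 fibroblast markers 2 were lower, Pdgfra and Smoc2, and the list had a median of −0.06 and summed to 1138 to 2202 CPM in fl/fl (median 1633) and to 1258 to 1910 CPM in HIF1α KO mice (median 1557). Of 7 tendon markers 1 was higher, Scx, and 6 were below 0, and of 7 pericyte and smooth muscle markers 2 were lower. Of 7 neuromuscular junction markers Musk was lower (−0.80, adjusted p = 1.23e-07, edgeR) and Chrne higher (0.23, adjusted p = 0.0255), and of 5 satellite cell markers Myf5 was higher (0.35, adjusted p = 0.0961). None of the endothelial, adipocyte, macrophage or fiber markers passed, and no marker in these lists was at 0 in every library. Their part in the collagen values was not tested.

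The second question was time of day. ZT3 and ZT15 here name the time of the session, and muscle was taken 3 h after it. In the average over genotype and exercise 3 of 39 collagens passed, where 8.02% of all genes did (4.09% higher and 3.92% lower): Col28a1 and Col27a1 rose from ZT3 to ZT15 and Col5a3 fell. Signs were mixed over the family, with 18 collagens above and 21 below 0 and a median of −0.03.

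Col28a1 (chr6:7997808-8192617, minus strand), a collagen known from the sheath of peripheral nerves, had a lowest, median and highest level of 1.19, 2.34 and 3.54 CPM at ZT3 and of 1.35, 3.48 and 7.07 CPM at ZT15. Of 32 mice at ZT15, 16 lay above every ZT3 mouse, while the lower ends lay close together. The fitted log2 change was 0.48 (SE 0.113, adjusted p = 0.00352, edgeR), or 1.39-fold. It was 0.77 in sedentary fl/fl mice, where it was the single collagen to pass (adjusted p = 0.0875, background 1.88%, against 2 collagens with DESeq2), 0.40 in exercised fl/fl, 0.53 in sedentary HIF1α KO and 0.21 in exercised HIF1α KO mice. No collagen passed in these last 3 combinations, where the background was 1.18%, 0.479% and 0.663%. Differences between these 4 values did not pass, since no collagen was called in the interaction tests, and without mice 5, 8 and 10 the value in sedentary fl/fl mice did not pass either (0.76, adjusted p = 0.145).

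Col27a1 (chr4:63214004-63334991), a fibrillar collagen of cartilage and developing tissues, had 0.640, 1.64 and 3.40 CPM at ZT3 and 1.18, 2.12 and 5.93 CPM at ZT15. The fitted log2 change was 0.47 (SE 0.130, adjusted p = 0.0176, edgeR), and the ranges overlapped up to 3.40 CPM. Col5a3 (chr9:20770050-20815067, minus strand), the third chain of type V, went the other way, with 18.3, 34.9 and 53.8 CPM at ZT3 and 16.7, 27.7 and 48 CPM at ZT15. Its fitted log2 change was −0.31 (SE 0.0941, adjusted p = 0.0337, edgeR), and it was close to that in each of the 4 combinations of genotype and exercise, at −0.33, −0.30, −0.31 and −0.31.

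All 3 calls held under each of the 8 alternatives tried. Without mice 5, 8 and 10 the values were 0.46 for Col28a1 (adjusted p = 0.00763, edgeR), 0.51 for Col27a1 (0.00702) and −0.34 for Col5a3 (0.0103). Then Col3a1 (−0.31, adjusted p = 0.0834) and the multiplexin Col15a1 (−0.28, adjusted p = 0.0541) passed as well, both lower at ZT15. These mice were picked by their Col3a1 level, and mice 8 and 10 are from ZT15 while mouse 5 is from ZT3. The added call of Col3a1 is therefore not independent of that choice. Within the runs of mouse numbers, again unadjusted, Col28a1 was 0.22, 0.42, 0.67 and 0.46 and Col27a1 was 0.61, 0.49, 0.68 and 0.23. Col5a3 was −0.38, 0.13, −0.31 and −0.67, so it was not lower at ZT15 in the second run.

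The partner lists also split at ZT15, beside 4.09% of all genes as higher and 3.92% as lower. Of 16 fibril-binding genes 2 fell, the microfibril protein Fbn1 (log2 change −0.50, adjusted p = 7.65e-05, edgeR) and Thbs2 (−0.49, adjusted p = 0.0148), and none rose. Of 12 processing genes the crosslinking enzymes Loxl2 (−0.47, adjusted p = 0.00413) and Loxl4 (−0.57, adjusted p = 0.00115) fell, and Pcolce2, an enhancer of C-propeptide cleavage, rose (0.19). Of 13 degradation genes the gelatinase Mmp9 fell (−0.73, adjusted p = 0.00730), and Mmp15 and the uptake receptor Mrc2 rose.

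In the TGF-β pathway 2 of 12 genes rose and 3 fell at ZT15. The shares over all genes, for this list and those below, were again 4.09% higher and 3.92% lower. The inhibitor Smad7 rose (log2 change 0.60, adjusted p = 5.81e-06, edgeR). Modification genes gave 1 higher and 2 lower of 19 and receptors 1 and 1 of 9, and Nid1 alone of 11 basement membrane partners rose (0.28, adjusted p = 0.0106). Of 9 fibroblast markers 2 rose at ZT15, Pi16 (0.38, adjusted p = 4.55e-05, edgeR) and Pdgfra (0.13, adjusted p = 0.050), and the list summed to medians of 1583 CPM at ZT3 and 1604 CPM at ZT15. Of 7 pericyte and smooth muscle markers Kcnj8 fell (−0.32, adjusted p = 0.00918), and Sox9 among bone and cartilage markers (0.51, adjusted p = 0.0765) and Dok7 among neuromuscular junction markers (0.26, adjusted p = 0.0199) rose. No tendon, endothelial, Schwann cell, adipocyte, macrophage, fiber or satellite cell marker passed, and the part of these markers in the collagen values was not tested.

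The third question was exercise. No collagen passed 3 h after the run, either in the average over genotype and time, where 2.84% of all genes did, or in any single combination, where the background was 0.236% (fl/fl, ZT3), 0% (fl/fl, ZT15), 0.131% (HIF1α KO, ZT3) and 0.0591% (HIF1α KO, ZT15). Averaged log2 fold changes ran from −0.22 to 0.27 with a median of −0.03, and their SEs had a median of 0.115. In the edgeR test of the average, 2 of 39 collagens had an unadjusted p under 0.05, as did 1661 of all 15241 genes. The collagen share was the smaller one. DESeq2 also called none.

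The 2 collagens with an unadjusted p under 0.05 in the edgeR test were Col6a6, a type VI chain, and Col4a2. Col6a6 had a lowest, median and highest level of 3.72, 8.54 and 15.4 CPM in sedentary and of 2.00, 7.28 and 16.0 CPM in exercised mice (log2 change −0.22, SE 0.106, adjusted p = 0.431, edgeR). Col4a2 had 36.2, 91.0 and 151 CPM in sedentary and 46.3, 102 and 161 CPM in exercised mice (0.22, SE 0.111, adjusted p = 0.444), and its partner Col4a1 stood at 0.17 (SE 0.101). The FACIT Col20a1 had the next smallest p, with medians of 2.30 and 2.77 CPM (0.17, adjusted p = 0.540, edgeR). For type I and type III, Col1a1 was at −0.08 (SE 0.226), Col1a2 at −0.07 (SE 0.189) and Col3a1 at −0.09, and their sedentary and exercised ranges overlapped nearly whole. With such SEs a change of the size seen for Smad3 (0.29, adjusted p = 0.000602) or the protease inhibitor Timp4 (0.36, adjusted p = 0.00937), which rose, could have been missed in the type I chains.

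In the test of exercise by time no collagen passed and the background was 0%, although 648 genes, 1 of them a collagen, had an unadjusted p under 0.05 with edgeR. That collagen was Col19a1, a FACIT, at 0.40 (unadjusted p = 0.0317).

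**Figure D3:**
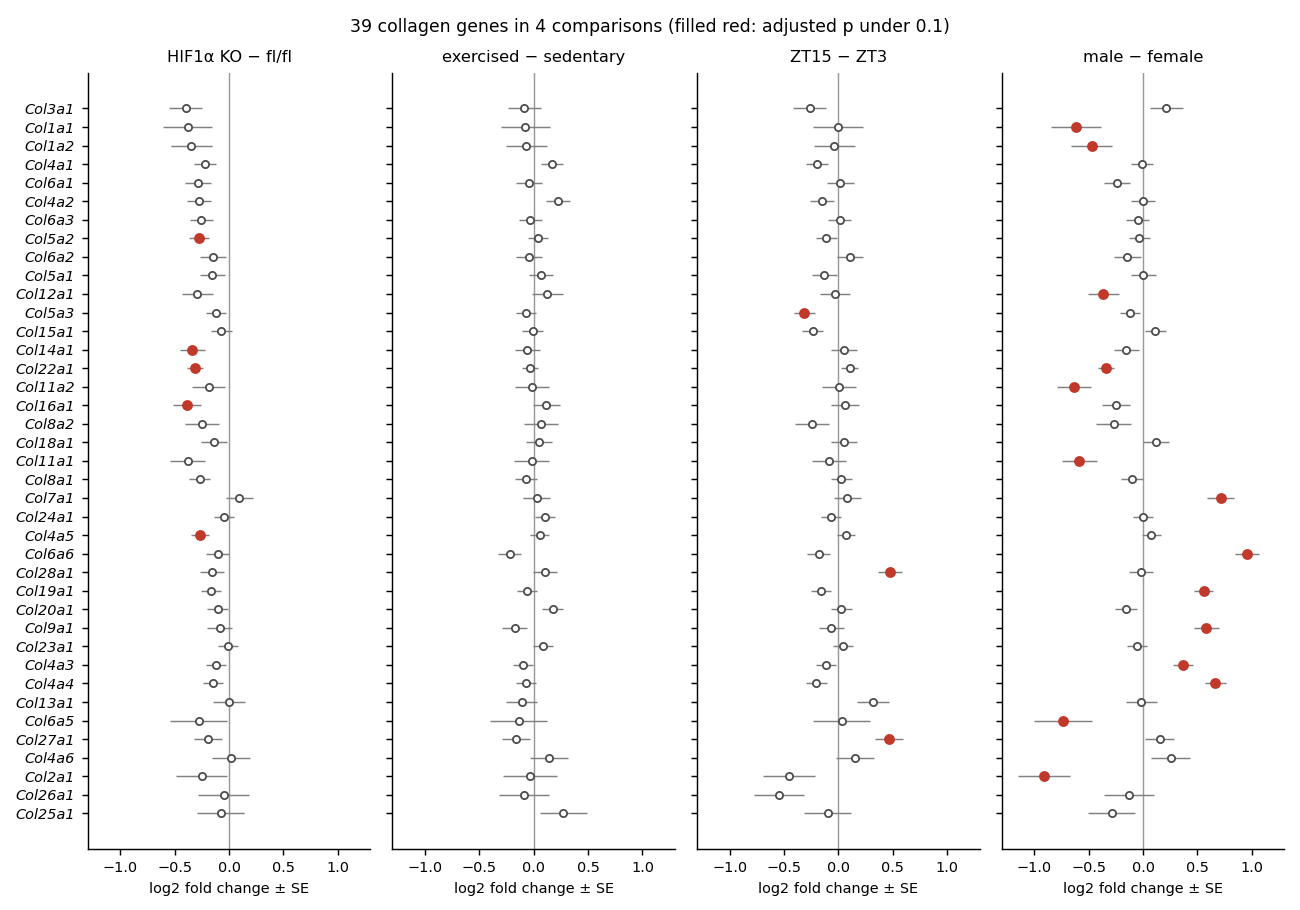
Log2 fold change with its SE (bars) for each of 39 tested collagens, in rows ordered by mean level per length, in 4 comparisons, with adjusted p under 0.1 in filled red. HIF1α KO minus fl/fl has 5 filled points, all left of 0, exercised minus sedentary has none, ZT15 minus ZT3 has 3, and male minus female has 14, with 6 right and 8 left of 0.

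Sex, a term of the model and balanced over groups, went with more collagens than any of the 3 factors did. Of 39 collagens 14 passed, 6 higher and 8 lower in males, where 25.1% of all genes passed (13.3% higher and 11.8% lower). The 14 make up 35.9% of the tested collagens.

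Type VI gave the widest separation. Col6a6 (chr9:105687809-105828160, minus strand) had a lowest, median and highest level of 2.00, 5.83 and 9.11 CPM in females and of 5.99, 10.8 and 16.0 CPM in males, so 22 of 31 males lay above the highest female. The fitted log2 change was 0.96 (SE 0.107, adjusted p = 9.36e-11, edgeR), or 1.94-fold. Its neighbour Col6a5 went the other way, with 0.367, 1.34 and 11.9 CPM in females and 0.309, 0.983 and 3.47 CPM in males (−0.74, SE 0.267, adjusted p = 0.0419), and here the ranges overlapped.

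Of the minor basement membrane chains Col4a3 and Col4a4 were higher in males and Col4a5 and Col4a6 did not pass, and the anchoring-fibril collagen was higher too. Col4a4 had 1.15, 2.68 and 4.87 CPM in females and 2.22, 4.48 and 6.55 CPM in males (log2 change 0.67, SE 0.0932, adjusted p = 5.64e-08, edgeR). Col4a3, which is read from the other side of the shared gap printed above, had medians of 3.11 and 3.87 CPM (0.37, SE 0.0934, adjusted p = 0.00225). Col7a1, which anchors basement membrane in skin, had 3.39, 10.2 and 18.4 CPM in females and 8.71, 16.1 and 27 CPM in males (0.71, SE 0.126, adjusted p = 1.30e-05).

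The neighbours Col9a1 and Col19a1, both FACIT genes, were also higher in males. Col9a1, a partner of type II in cartilage, had medians of 1.96 and 2.99 CPM (log2 change 0.58, SE 0.115, adjusted p = 8.13e-05, edgeR), and Col19a1 had medians of 3.02 and 4.55 CPM (0.56, SE 0.0911, adjusted p = 2.22e-06). Col22a1, the FACIT of the muscle and tendon junction, was instead lower in males, with 18.8, 34.7 and 49 CPM in females and 15.5, 26.7 and 40.8 CPM in males (−0.34, SE 0.0751, adjusted p = 0.000445).

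The fibrillar chains that passed were all lower in males. Col1a1 had 80.4, 329 and 718 CPM in females and 52.8, 172 and 513 CPM in males (log2 change −0.62, SE 0.229, adjusted p = 0.0478, edgeR). Col1a2 had medians of 591 and 335 CPM (−0.47, SE 0.191, adjusted p = 0.0735). The sexes overlapped over most of the range in both, with the lower median in males.

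The type XI chains, which nucleate fibrils with type I or II, went the same way. Col11a2 had medians of 18.9 and 10.6 CPM (log2 change −0.63, SE 0.157, adjusted p = 0.00197, edgeR) and Col11a1 of 23.8 and 13.6 CPM (−0.59, SE 0.161, adjusted p = 0.00580). The cartilage collagen Col2a1 was near its floor, with medians of 0.718 and 0.309 CPM and 2 males at 0 (−0.91, SE 0.241, adjusted p = 0.00363). Col12a1, a FACIT of tendon and fascia, had medians of 88.9 and 64.4 CPM (−0.37, SE 0.143, adjusted p = 0.0596). Col3a1 did not pass, at 0.21 (adjusted p = 0.355), with medians of 392.4 and 386 CPM and the 3 highest males being mice 5, 8 and 10.

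**Figure D4:**
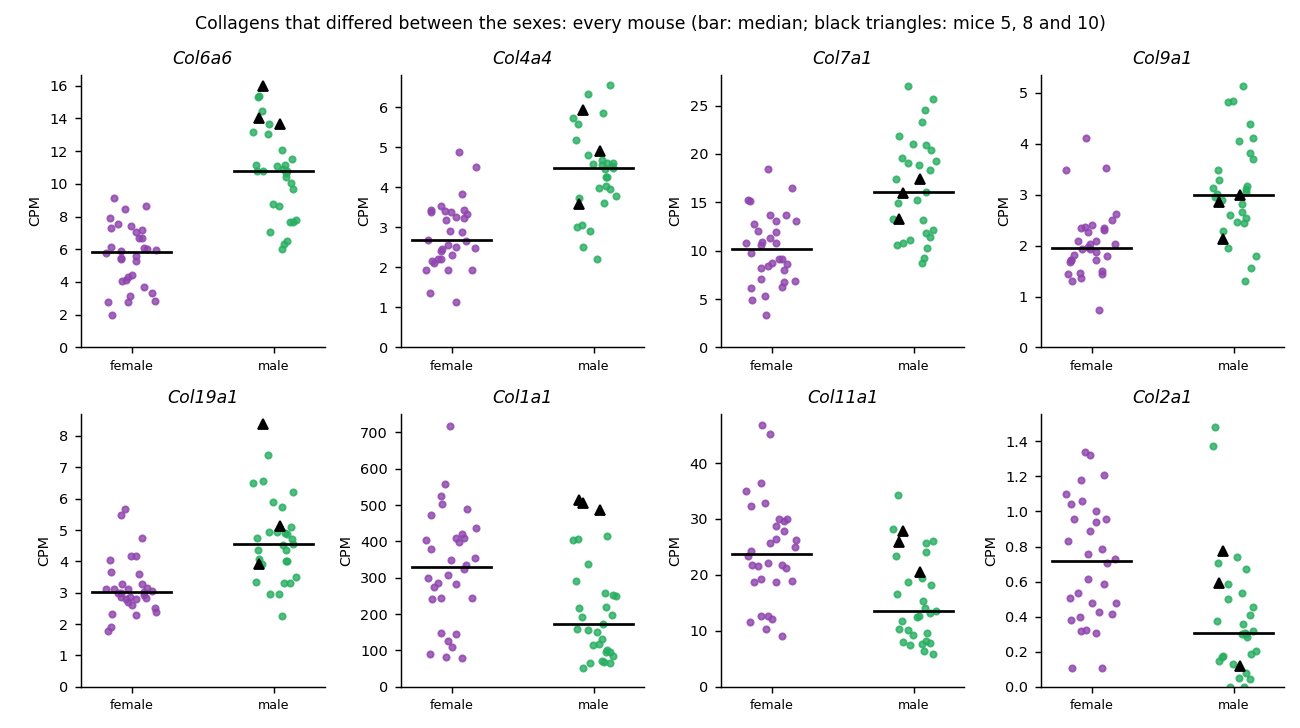
CPM of 8 collagens in each female and male mouse, with bars at the median and black triangles for mice 5, 8 and 10. Col6a6 (medians 5.83 and 10.8 CPM), Col4a4, Col7a1, Col9a1 and Col19a1 are higher in males, and Col1a1 (329 and 172 CPM), Col11a1 and Col2a1 are lower, with overlap in each.

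The 14 sex differences, taken as unadjusted differences of mean log2 CPM, had the same sign in each of the 4 runs of mouse numbers. Col4a3 was close to 0 in the first run, at 0.0053, against 0.53, 0.53 and 0.49 in the others. All 14 calls passed under each of 7 alternatives except Col1a2 and Col12a1, which passed under 5. Without mice 5, 8 and 10 the count rose to 18, with Col6a1 (−0.35, adjusted p = 0.0213, edgeR), Col6a2 (−0.27, 0.0658), Col14a1 (−0.33, 0.00295) and Col16a1 (−0.35, 0.0293) added, all lower in males. Those mice are all males picked for a high collagen level, so leaving them out lowers the male side by construction. The added calls are therefore not an independent result.

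Partner genes of fibrils were lower in males as well. Across all genes tested 13.3% passed as higher and 11.8% as lower in males. Of 16 fibril-binding genes 9 fell and none rose, with a median of −0.31. Of 12 processing genes 4 fell and none rose, among them the crosslinking enzyme Lox (log2 change −0.57) and the propeptide protease Adamts3. Of 19 modification genes 6 fell, such as the lysyl hydroxylase Plod2 (−0.40), and 2 rose, led by the collagen export protein Mia3 (0.41, adjusted p = 4.06e-14, edgeR). Receptors gave 1 higher (Itgb1) and 2 lower (the integrin chains Itga10 and Itga2) of 9, basement membrane partners 1 higher and 2 lower of 11, degradation genes 2 lower of 13 and the TGF-β pathway 2 higher and 2 lower of 12.

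Markers of other cells moved with sex, beside 13.3% of all genes as higher and 11.8% as lower in males. All 6 adipocyte markers were lower in males, with a median of −0.80, and their sum was 66.0 to 402 CPM in females (median 199) and 51 to 308 CPM in males (median 107). Of 9 fibroblast markers 6 were lower (summed medians 1652 and 1532 CPM), of 7 tendon markers 4 (117 to 615 CPM, median 275, against 125 to 407 CPM, median 215) and of 7 Schwann cell markers 5. Of the neuromuscular junction markers Musk (1.06, adjusted p = 1.39e-12, edgeR), Colq (0.30) and Chrne (0.26) were higher in males. Also higher were the pericyte and smooth muscle markers Acta2 and Rgs5 and the endothelial marker Esam. Of the fiber markers Ckm and Tnnt3 were higher and Myh2 was lower. The satellite cell marker Chodl, also on the tendon list, was lower. None of the 6 macrophage markers passed. No marker of these lists was at 0 in every library, and their part in the sex differences was not tested.

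Abundant chains of the same molecule rose and fell together between mice, while 2 low-level type IV pairs, given further on, did not pass the same test. Over 63 mice, on log2 CPM from which group and sex had been taken out, Col1a1 and Col1a2 had a Pearson r of 0.983 and a Spearman rho of 0.978, and r was 0.981 without the 2 mice farthest from the median of Col1a1. Within the runs of mouse numbers r was 0.994, 0.985, 0.980 and 0.958. For Col4a1 and Col4a2 r was 0.928 (rho 0.901), for Col6a1 and Col6a3 0.898 (rho 0.882) and for Col6a1 and Col6a2 0.858 (rho 0.811). Each of these had a permutation p of 1e-05 from 100000 shuffles, the smallest they can give, and 1.5e-05 after adjustment over 12 pairs.

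Looser pairs were Col5a1 and Col5a2 (r = 0.739, rho 0.651), Col1a1 and Col3a1 (0.731, rho 0.735) and Col15a1 and Col18a1 (0.717, rho 0.749), with the same permutation p. For Col5a1 and Col5a2 r fell to 0.590 without mice 5, 8 and 10 and to 0.472 within the last run of mouse numbers. For Col15a1 and Col18a1 r was 0.541 once the run was also taken out. Over all 741 pairs of tested collagens r had a median of 0.334 and ran from −0.317 to 0.983, which describes a family that shares libraries and cells.

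Of 7 pairs side by side on a chromosome, 4 had low correlations. Col4a4 and Col4a3, head to head with the 71 bases printed above between them, had r = 0.138 (rho 0.166, permutation p = 0.280, adjusted 0.336), although both were higher in males and their products share a molecule. Col4a6 and Col4a5, head to head over 1308 bases, had r = 0.108 (rho 0.184, permutation p = 0.399), Col9a1 and Col19a1 had −0.112 (rho −0.072, permutation p = 0.379), and Col6a6 and Col6a5 had 0.216 (rho 0.239, permutation p = 0.088). All of these genes are low in level, at means of 0.296 TPM for Col4a6 to 3.86 TPM for Col4a5.

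The other 3 neighbouring pairs had high correlations, and one of them is not of partner chains: Col3a1 and Col5a2, tail to tail and 24614 bases apart, with r = 0.935 (rho 0.919, permutation p = 1e-05). It was 0.981, 0.942, 0.932 and 0.910 within the runs and 0.896 without mice 5, 8 and 10, and exceeded the r of Col5a2 with its own partner chain Col5a1 (0.739). The difference of these r values was not tested. Of the partner pairs above, Col4a1 and Col4a2 also start head to head, with 22 bases of overlap, and Col6a2 and Col6a1 lie in the same direction.

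**Figure D5:**
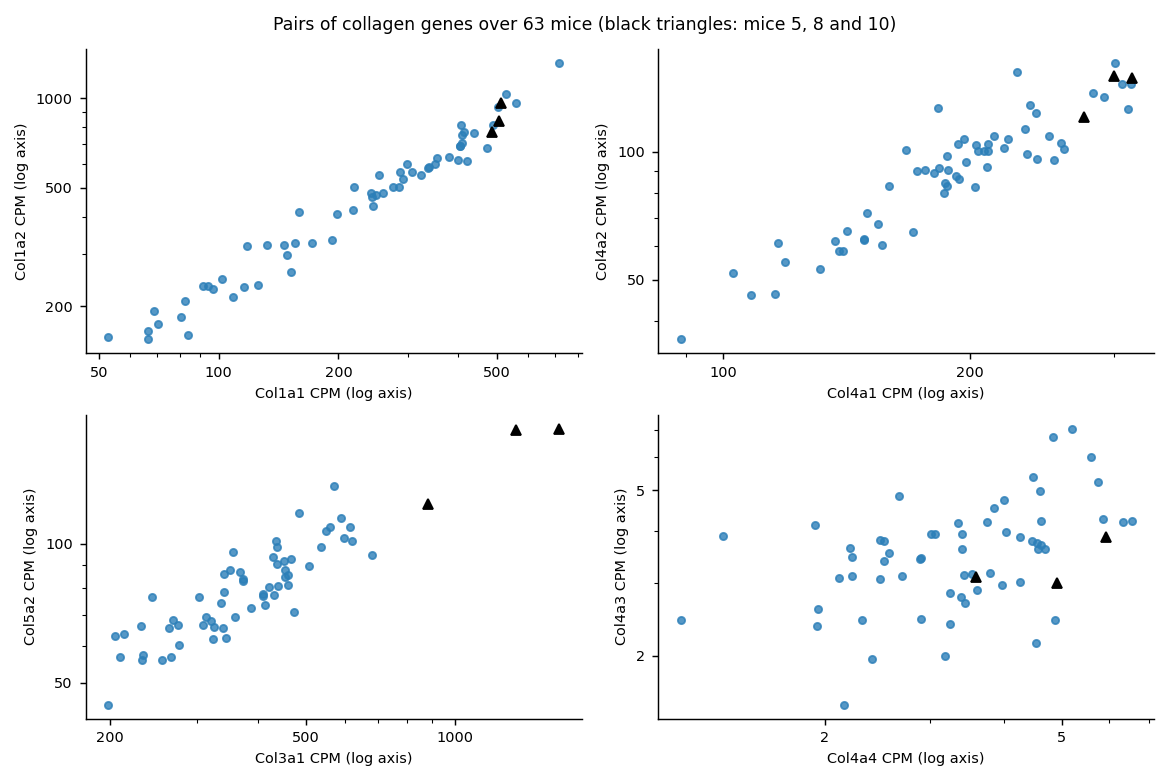
CPM of 4 pairs of collagens, one point per mouse (63 mice), both axes log, with black triangles for mice 5, 8 and 10. Points of Col1a1 and Col1a2, Col4a1 and Col4a2, and Col3a1 and Col5a2 follow a line, and those of Col4a4 and Col4a3 scatter (r = 0.138 after group and sex).

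Col17a1 (chr19:47646344-47692094, minus strand), a transmembrane collagen of skin hemidesmosomes, was present in few mice. It stood at 18.8 CPM in mouse 14, 17.2 in mouse 46, 8.66 in mouse 13 and 1.87 in mouse 47, and at no more than 0.740 CPM in the other 59. The first 3 of these are fl/fl and the last is HIF1α KO. The epidermal keratins Krt5 and Krt14, chosen after these values were seen, were 21.4, 14.5, 9.60 and 4.6 CPM and 16.2, 12.8, 7.09 and 4.6 CPM in the same mice, and Krt5 was at 0 in 50 of 63 libraries. Their part in the Col17a1 values was not tested.

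Of the 40 collagens 10 share exon bases with another gene, none over more than 10% of their exon length, the largest share being 5.65% of Col4a3 with a gene on the opposite strand.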

How the data were processed

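Total RNA was made into TruSeq stranded mRNA libraries, and the authors aligned reads with STAR to mm10 and counted them per gene with featureCounts. The deposited values are raw counts. Tool versions, the annotation, whether strand was used and how reads shared by genes were treated are not given in the sources used here, so overlapping genes are uncertain.

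Counts were scaled by TMM, filtered with filterByExpr over 8 groups, and tested with edgeR 4.0.16 (quasi-likelihood, robust; R 4.3.3, limma 3.58.1) on group and sex in 63 libraries, with Benjamini-Hochberg adjustment over 15241 genes and calls at an adjusted p under 0.1. CPM use TMM-scaled totals. TPM use exon lengths of GENCODE M21, which matched 55141 of 55401 identifiers. Classes, partner lists and marker lists, like the collagens themselves, were chosen with earlier results of these data known. Named collagens were all those called, the 3 of smallest p in each average comparison, the type I, III, V (α1, α2), VI (α1 to α3), XV and XVIII chains with Col4a1 and Col4a2, and those nearest the count limit. Of the partner lists, examples of the called genes were named, and 1 gene is not reported here. The code was tested on simulated data. DESeq2 1.42.0 was an alternative. Depth was 2359780 to 40377963 counts per library.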

Additional observations from a re-analysis of the deposited data

Results flagged for a closer look

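In 12 of 248 sets (31 named collagens in 8 groups) 1 mouse stood far from its group by Dixon's criterion, which chance passes in about 1 of 20 groups. Mouse 8 (fl/fl, ZT15, sedentary) was high in Col3a1 at 882 CPM (the other 7 mice at 303 to 420), in Col4a1 at 299.7 CPM (150 to 203), in Col5a1 at 70.4 CPM (32.4 to 45.2) and in Col6a3 at 194 CPM (109 to 125). In the same group mouse 56 was low in Col1a1 at 118 CPM (258 to 503). Mouse 10 (fl/fl, ZT15, exercised) was high in Col18a1 at 24.4 CPM (8.50 to 13.8) and in Col4a5 at 15.3 CPM (6.30 to 9.09).

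Col18a1 was also high in mouse 13 (fl/fl, ZT3, exercised) at 19.1 CPM (10.4 to 13.3) and low in mouse 27 (HIF1α KO, ZT15, exercised) at 6.48 CPM (11.7 to 15.3). Col9a1 was low in mouse 36 (fl/fl, ZT3, exercised) at 0.742 CPM (1.80 to 3.48), and Col4a3 was low in mouse 23 (HIF1α KO, ZT3, exercised) at 2.44 CPM (3.11 to 3.73). Col6a5 was high in mouse 29 (HIF1α KO, ZT15, sedentary) at 11.9 CPM, with the others at 0.432 to 0.983 CPM.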

How the results depend on the processing

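Over all alternatives, 168 counts of called collagens stayed within 1.5 times the value reported and 14 moved. Most comparisons had no called collagen, and counts of 0 that stayed at 0 are among the 168. The 168 therefore do not measure how steady the counts above 0 were. For genotype 5 collagens passed on average. This became 2 at an adjusted p under 0.05 and 8 with DESeq2 (Col3a1, Col4a2 and Col8a1 added). It became 3 without the expression filter, and 1 of these was Col17a1, present in few mice (log2 change −1.88, adjusted p = 0.0689, edgeR). The count was 2 with the run of mouse numbers as a term and 1 without mice 5, 8 and 10. For time of day the average count of 3 became 5 without those mice. In sedentary fl/fl mice the count of 1 became 2 with DESeq2 or with the run, and 0 at an adjusted p under 0.05, without the filter, without the sex term, without libraries under 5000000 counts and with only the compared groups in the model. In exercised fl/fl mice 0 became 1 without mice 5, 8 and 10. Of single genes, Col5a1 reversed for genotype without those mice (0.0014, adjusted p = 0.997), 26 calls were lost, 2 gained and 291 values kept their direction and side. The causes were not tested. The mice, the run and the 64 libraries were alternatives chosen after seeing the data. No paired analysis was possible because each mouse number belongs to 1 animal and groups share none. Low depth limits Col25a1, Col2a1, Col26a1 and Col4a6 most.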
